A study of Homo sapiens with 2 samples.

Results

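The miRNAs described here are 7 mature miRNAs known as tumour suppressors of the liver: hsa-miR-26a-5p, hsa-miR-26b-5p, hsa-miR-101-3p, hsa-miR-22-3p, hsa-miR-199a-5p, hsa-miR-199a-3p and hsa-miR-139-5p, written below without the species prefix in most places. They were listed by name because each is known to fall in hepatocellular carcinoma, and all 7 were found among the 2549 human miRNAs of the array, each under its own name on both arrays. The study asked which miRNAs respond to uc.372, an ultraconserved transcript that it linked to lipid storage in liver cells. HepG2 cells, a human line that the study describes as coming from a hepatocellular carcinoma, were used. They received the adenoviral control vector Ad-NC or the adenoviral vector Ad-uc.372 for 48 h. The RNA of each culture was labelled with Cy3 and hybridised to 1 array. Both cultures therefore carried an adenovirus, and neither array shows cells without one. The study's text describes overexpression of uc.372 for this array experiment, and the title of the series names it too. The sample labels carry no suffix, and a scatter plot in the study's supplement has axes with the suffix of the inhibitor vectors. Each difference below is Ad-uc.372 minus Ad-NC as the samples are labelled. With 1 array per condition no test between conditions was possible and no p-value is given, and the errors are SDs between spots of a probe, which are technical.

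A mature miRNA guides an Argonaute protein to messenger RNAs, mainly through its seed, bases 2 to 8 from the 5′ end, and lowers their translation or stability. In liver, the miR-26 family is known to restrain cell cycle genes such as the cyclins CCND2 and CCNE2. miR-101-3p is known for repressing the chromatin modifier EZH2 and the survival protein MCL1, miR-22-3p for repressing the deacetylase HDAC4, miR-199a-3p for repressing the growth factor receptor MET and the kinase MTOR, and miR-139-5p for repressing the kinase ROCK2. These roles are background and were not measured here.

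The mature sequences show how far the miRNAs differ. Probe sequences were not compared, so how well a probe separates close sequences, such as those of the 2 miR-26 members, was not tested. RefSeq (GRCh38.p14) held all 7, and they are given 5′ to 3′ with the seed in capitals, followed by those other miRNAs of the array, among the ones with a RefSeq sequence, that have the seed of a member.
hsa-miR-26a-5p: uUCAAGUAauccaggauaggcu
hsa-miR-26b-5p: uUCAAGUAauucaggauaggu
hsa-miR-101-3p: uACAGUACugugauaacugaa
hsa-miR-22-3p: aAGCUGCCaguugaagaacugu
hsa-miR-199a-5p: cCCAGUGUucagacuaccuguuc
hsa-miR-199a-3p: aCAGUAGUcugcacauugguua
hsa-miR-139-5p: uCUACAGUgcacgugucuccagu
hsa-miR-4465: cUCAAGUAgucugaccagggga
hsa-miR-1297: uUCAAGUAauucaggug
hsa-miR-3129-5p: gCAGUAGUguagagauugguuu
The 2 miR-26 members shared the seed UCAAGUA and differed over their first 21 bases at 2 positions, C11U and C21U, counted from the 5′ end with the base of miR-26a-5p first. miR-4465 and miR-1297 had that seed as well. Outside it, miR-4465 differed from miR-26a-5p at 11 of 22 positions, whereas miR-1297 differed at 3 of its 17. miR-199a-3p had 0 differences from miR-199b-3p, which is no entry of its own on the array, so a probe for it reads both. Seeds could be compared for 2248 of the 2549 miRNAs, those whose names matched a RefSeq sequence, and miR-199b-5p, the paralogue of miR-199a-5p, was not among them.

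Several members come from more than 1 gene or from within a larger one. In RefSeq on GRCh38.p14, the mature miR-26a-5p lies at chr3:37969413-37969434 (plus strand, MIR26A1) within the span of CTDSPL and again at chr12:57824658-57824679 (minus strand, MIR26A2) within CTDSP2, and the array cannot tell these sources apart. miR-26b-5p lies at chr2:218402657-218402677 (plus strand, MIR26B) within CTDSP1, so all 3 miR-26 genes sit in genes of the same family of C-terminal domain phosphatases. miR-101-3p lies at chr9:4850345-4850365 (plus strand, MIR101-2) within RCL1, its sequence is also held by the hairpin of MIR101-1 on chromosome 1, and these sources cannot be told apart either. miR-22-3p lies at chr17:1713914-1713935 (minus strand) within its long non-coding host MIR22HG. The miR-199a arms were placed on the minus strand at MIR199A1 on chromosome 19, within the span of DNM2, and at MIR199A2 on chromosome 1, within DNM3 and DNM3OS. miR-139-5p lies at chr11:72615102-72615124 (minus strand, MIR139) within PDE2A. The table used gives no exons, so intronic and exonic positions were not told apart.

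Of the 7 members, 4 remained measurable in HepG2 cells with either vector: miR-26a-5p, miR-26b-5p, miR-101-3p and miR-22-3p. The other 3, miR-199a-5p, miR-199a-3p and miR-139-5p, failed to rise well above background with either vector, and no member was measured on 1 array only. A probe counted as measured if 50% or more of its spots were called well above background by the scanner software, and a miRNA if any of its probes did. This held on both arrays for 229 of the 2549 miRNAs, or 8.98%. Each member had 2 probes of 10 spots each, 140 spots per array in all, of which 4 with Ad-NC and 2 with Ad-uc.372 were marked as outliers and left out. No member spot was saturated. The dimmest spot called well above background read 21.1 with Ad-NC and 17.3 with Ad-uc.372. On both arrays the same 7 of the 14 member probes passed, namely both probes of miR-26a-5p, miR-26b-5p and miR-22-3p and 1 probe of miR-101-3p. Among markers of cell types, the hepatocyte miRNAs miR-192-5p and miR-194-5p were measured and miR-122-5p was not, and 0 of 2 endothelial, 0 of 5 blood and 0 of 4 stellate cell or fibroblast miRNAs were well above background on either array.

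The members that were not seen lay at the level of the negative control spots or, for miR-139-5p, below their mean. The controls had a mean signal of 3.94 ± 3.77 (SD, 989 spots) with Ad-NC and 3.48 ± 3.39 (982 spots) with Ad-uc.372. For miR-199a-3p, the arm that represses MET, the brighter probe averaged 6.40 ± 5.08 (10 spots) with Ad-NC and 4.99 ± 3.88 (10 spots) with Ad-uc.372, and its brightest spot on either array, at 14.2 with Ad-NC, was under the limit. The other probe averaged 3.03 and 2.48. For miR-199a-5p the probes averaged 2.26 and 1.76 with Ad-NC and 3.62 and 1.11 with Ad-uc.372, and its brightest spot on either array reached 10.9. For miR-139-5p all 4 probe means were negative, from -3.58 to -1.11 with Ad-NC and from -3.52 to -2.71 with Ad-uc.372. No difference is given for these 3 miRNAs, because none of their spots was well above background and spots under the limit were raised to it. The software likewise listed all 3 as not detected on both arrays.

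**Figure D1:**
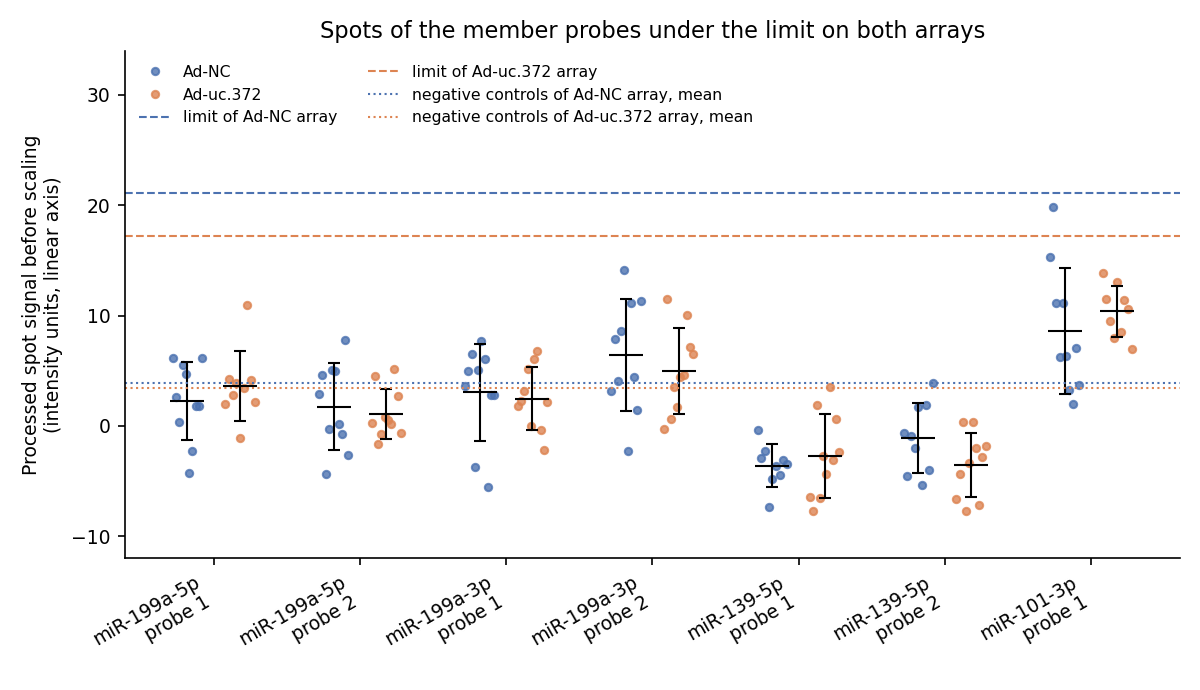
Processed signal before scaling, on a linear axis in intensity units, of each spot of the 7 member probes under the limit on both arrays. Black bars are the mean ± SD over spots, dashed lines the dimmest spot called well above background on each array, and dotted lines the mean of the negative controls. Only 1 spot, of miR-101-3p with Ad-NC at 19.8, came near its limit of 21.1, and the miR-139-5p probes lie below 0 on average.

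The measured members were compared on the log2 scale. Each array was scaled to the 75th percentile of those probes that both arrays measured, a signal of 304.6 for Ad-NC and of 356.5 for Ad-uc.372, which moved every difference by -0.23. Over the 229 measured miRNAs the median log2 difference was then -0.17, against 0.060 before scaling. None of the 4 members reached 1.5-fold, the fold change in the study's own threshold, which also asked for a t-test. Of the 229 miRNAs, 9, or 3.93%, reached 1.5-fold, of which 3 were higher (1.31%) and 6 lower (2.62%). A count of 0 of 4 is therefore near the background. miR-26a-5p and miR-22-3p had values under 0, except where all probes entered the 75th percentile, as did 73.8% of all measured miRNAs. miR-26b-5p had a value above 0 under each scaling tried, and miR-101-3p had one close to 0 that fell below it in the authors' values, with normexp and when dim probes were kept. The median of the 4 members was -0.11.

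miR-26a-5p and miR-26b-5p, which share a seed, lay on opposite sides of the median of all miRNAs. Probes are numbered in the order of their identifiers, and their values are processed signals in intensity units before scaling, as mean ± SD over spots. For hsa-miR-26a-5p, probe 1 (A_25_P00011998) read 155 ± 19.2 (10 spots) with Ad-NC and 158 ± 30.9 (10 spots) with Ad-uc.372. Probe 2 (A_25_P00011999) had 602 ± 46.0 (9 spots) and 571 ± 123 (10 spots). The spots of both arrays overlapped on each probe, and the wider spread with Ad-uc.372 came from spots as dim as 350 on probe 2 and as bright as 214 on probe 1. After scaling the log2 differences of the probes were -0.21 and -0.33, and that of the miRNA was -0.27, with a combined spot SD of 0.34 and a standard error over spots of 0.077. This is 1.21-fold lower with Ad-uc.372 and is within the spread between spots.

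For hsa-miR-26b-5p, probe 1 (A_25_P00012001) read 107 ± 14.7 (10 spots) with Ad-NC and 148 ± 16.1 (10 spots) with Ad-uc.372. Before scaling, 8 of its 10 spots with Ad-uc.372 were brighter than every spot with Ad-NC, and after scaling 4 were. Probe 2 (A_25_P00012002) had 189 ± 48.0 (10 spots) and 248 ± 69.8 (10 spots), with ranges of 116 to 253 and 124 to 317 that overlapped. On it, 6 of 10 spots with Ad-uc.372 were brighter than every spot with Ad-NC before scaling and 3 after it. After scaling the differences were 0.24 and 0.14, and that of the miRNA was 0.19, or 1.14-fold higher, with a combined spot SD of 0.47 and a standard error over spots of 0.10. It ranked 22nd highest of the 229, whereas miR-26a-5p ranked 79th lowest.

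The gap between the 2 miR-26 members does not depend on the scaling constant, since that constant moves both alike. It was 0.46 on the log2 scale, or 1.38-fold, with a combined spot SD of 0.58 and a standard error over spots of 0.13. Both probes of miR-26b-5p had higher differences than both probes of miR-26a-5p, the nearest of them being 0.35 apart. Of 18 alternatives, 7 leave this gap as it is by construction, and the other 11, of which 3 use the software's totals and share their values, gave 0.32 to 0.56. The standard error covers spots on 2 arrays only, and labelling, hybridisation and culture have no replicate here.

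**Figure D2:**
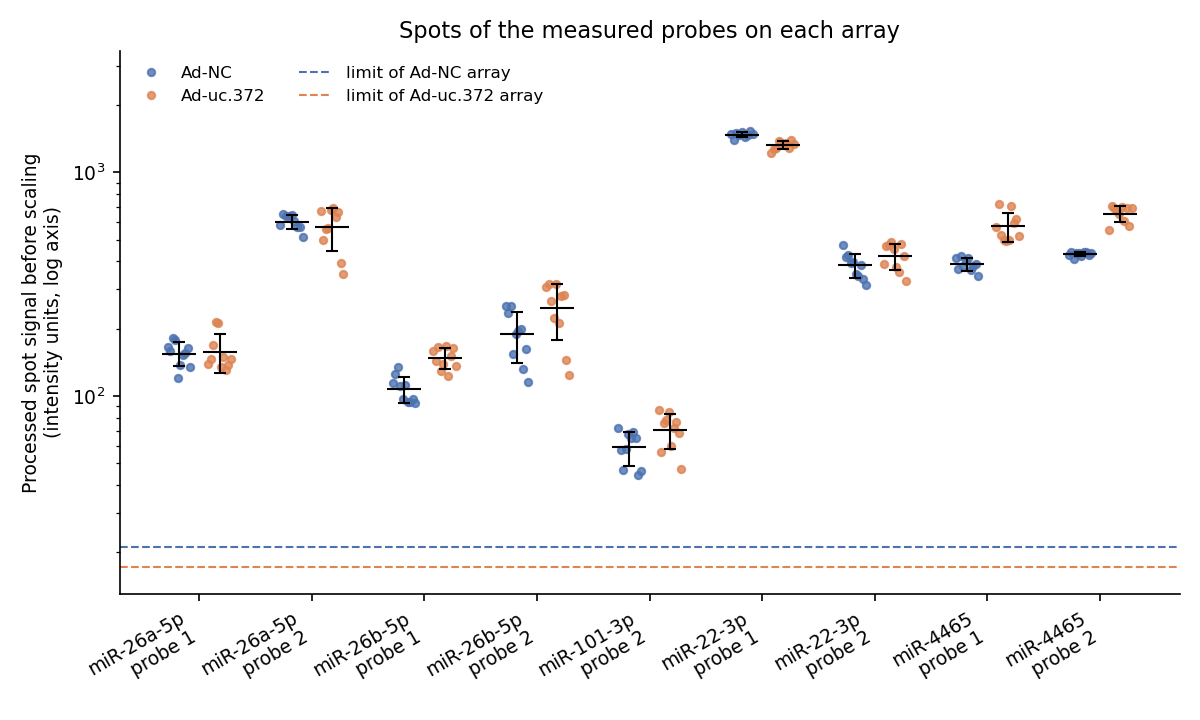
Processed signal before scaling, on a log axis in intensity units, of each spot of the probes measured on both arrays, with the mean ± SD in black and the limit of each array as a dashed line. Levels of different probes are not comparable. Probe 1 of miR-26b-5p and both probes of miR-4465 sit higher with Ad-uc.372, and probe 1 of miR-22-3p sits lower. For miR-101-3p and probe 2 of miR-26b-5p, 6 of 10 spots with Ad-uc.372 lie above all those with Ad-NC, and the spots of the remaining probes overlap.

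Spots at the same position of both arrays could be compared directly, because the layout is the same. Over the 3565 positions of the 393 probes measured on both arrays, the deviations of spots from their probe mean went together between arrays, with a Pearson r of 0.44, and for the 68 positions of the member probes r was 0.48. These are correlations across spots that share a layout, slide and scan, and are given as a description. Position by position, miR-26b-5p was brighter with Ad-uc.372 at 19 of 20 positions before scaling and at 14 of 20 after it. miR-26a-5p was brighter at 8 of 19 positions before scaling and at 3 of 19 after it. Pairing cannot move a mean difference where every spot has a partner, so miR-26b-5p stayed at 0.19 by construction. For miR-26a-5p, where a spot without a partner dropped out, it gave -0.23.

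**Figure D3:**
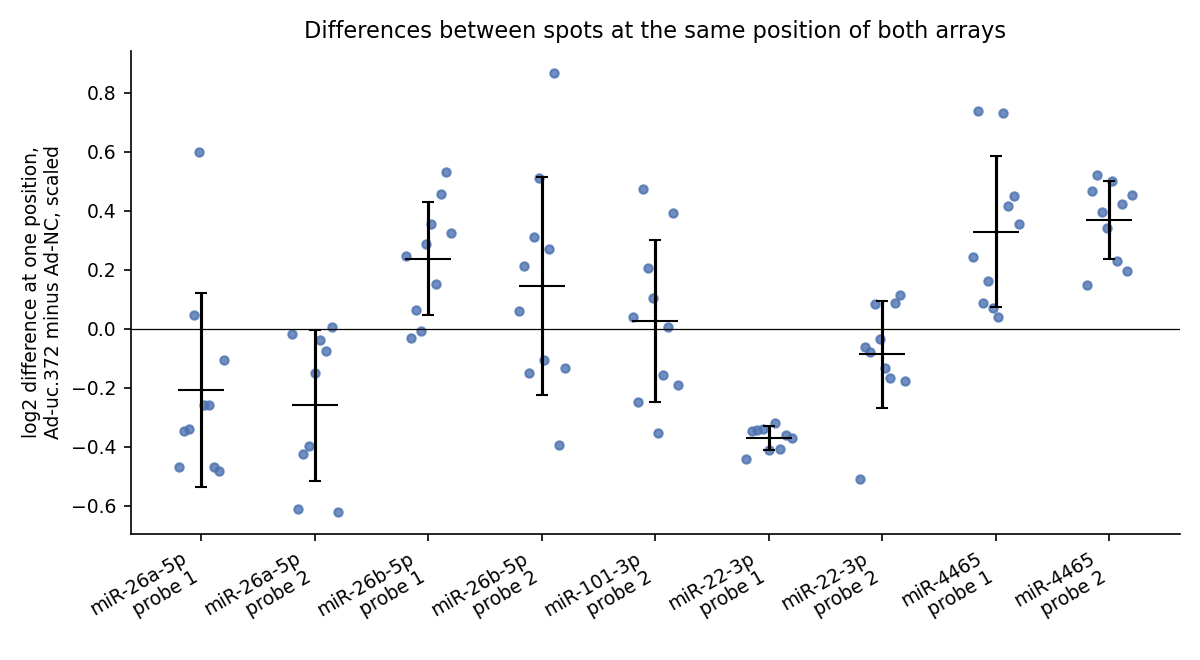
Scaled log2 difference, Ad-uc.372 minus Ad-NC, between the spots at each shared position, for each probe measured on both arrays. Black bars are the mean ± SD over positions. Probe 1 of miR-22-3p lies between -0.44 and -0.32 at all 9 positions, and both probes of miR-4465 lie above 0 at all 10.

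Of the other miRNAs with the miR-26 seed, miR-4465 was measured and miR-1297 was not. Its probe 1 (A_25_P00017127) read 388 ± 24.6 (10 spots) with Ad-NC and 575 ± 85.6 (10 spots) with Ad-uc.372, and its probe 2 (A_25_P00017128) had 432 ± 9.97 and 654 ± 56.4. Before scaling, every spot with Ad-uc.372 was brighter than every spot with Ad-NC, on each probe. After scaling this held for 9 of 10 spots on probe 1 and 10 of 10 on probe 2. The scaled difference was 0.35, or 1.27-fold higher, with a combined spot SD of 0.19, and it ranked 8th highest of the 229. It stayed under 1.5-fold except with the 75th percentile over all probes, where it was 0.83. The spots of miR-1297 averaged at most -0.63 on any of its 3 probes, and miR-3129-5p, which has the seed of miR-199a-3p, was not well above background either. The miR-26 seed was thus read on this array in 3 miRNAs, with differences of -0.27, 0.19 and 0.35.

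hsa-miR-101-3p, the repressor of EZH2, rested on 1 of its 2 probes. That probe (A_25_P00012039) read 59.1 ± 10.2 (10 spots) with Ad-NC, ranging from 44.5 to 71.9, and 70.6 ± 12.7 (10 spots) with Ad-uc.372, ranging from 47.2 to 86.4. The groups of spots overlapped, with 6 of 10 spots with Ad-uc.372 above all those with Ad-NC before scaling and 2 after it. The scaled difference was 0.026, or 1.02-fold, with a combined spot SD of 0.38, so none was seen beyond the spread between spots. The other probe (A_25_P00012038) averaged 8.60 and 10.4, under the limits, with 0 spots well above background. When that dim probe was averaged in, the miRNA moved to -0.25, a value set by the limits of the arrays.

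hsa-miR-22-3p, the repressor of HDAC4, gave different values on its 2 probes. Probe 1 (A_25_P00010204) read 1476 ± 42.6 (9 spots) with Ad-NC and 1324 ± 55.5 (10 spots) with Ad-uc.372, and 9 of these 10 spots were dimmer than every spot with Ad-NC even before scaling. Probe 2 (A_25_P00010205) had 384 ± 48.4 (10 spots) and 424 ± 57.4 (10 spots), and was brighter with Ad-uc.372 at 9 of 10 positions before scaling. After scaling both were lower with Ad-uc.372, by log2 differences of -0.39 and -0.09. The miRNA had a difference of -0.24, or 1.18-fold lower, with a combined spot SD of 0.20. This exceeded the SD in the reported setting, but the probes were 0.30 apart, and without scaling the difference was -0.0096. Only probe 1 differed beyond its own combined spot SD of 0.074.

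**Figure D4:**
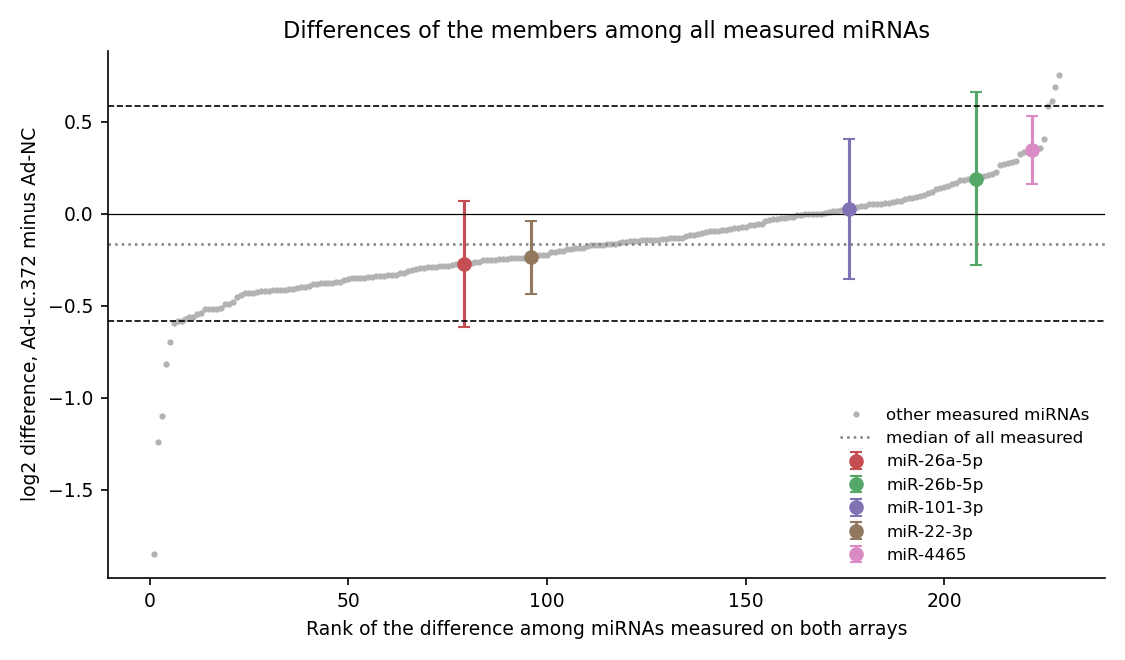
Scaled log2 differences, Ad-uc.372 minus Ad-NC, of the 229 miRNAs measured on both arrays in rank order, with the 4 measured members and miR-4465 in colour and their combined spot SDs as bars. Dashed lines mark 1.5-fold and the dotted line the median of -0.17. All 5 coloured points lie between the dashed lines.

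Relative to the median of all measured miRNAs, which removes any constant, miR-26a-5p was at -0.11, miR-22-3p at -0.070, miR-101-3p at 0.19 and miR-26b-5p at 0.36. Of the 6 pairs among these members, none had a gap beyond its combined spot SD, so neighbours in this order do not differ beyond the spread between spots. The software's own total per miRNA also put miR-26b-5p and miR-101-3p above miR-26a-5p and miR-22-3p. For miR-26b-5p it was 41.9 ± 3.26 (the software's error) with Ad-NC and 55.9 ± 4.25 with Ad-uc.372, before scaling, and for miR-101-3p 8.36 ± 1.04 and 9.98 ± 1.12. For miR-26a-5p it was 107 ± 8.85 and 103 ± 8.57, and for miR-22-3p 263 ± 21.6 and 247 ± 19.7. Without scaling, the ratios were 1.34 for miR-26b-5p, 1.19 for miR-101-3p, 0.96 for miR-26a-5p and 0.94 for miR-22-3p. Before scaling, the errors of the arrays do not overlap for miR-26b-5p, and overlap for the other 3. This depends on the scaling, since in the authors' deposited log2 values the difference of miR-26b-5p was 0.089.

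**Figure D5:**
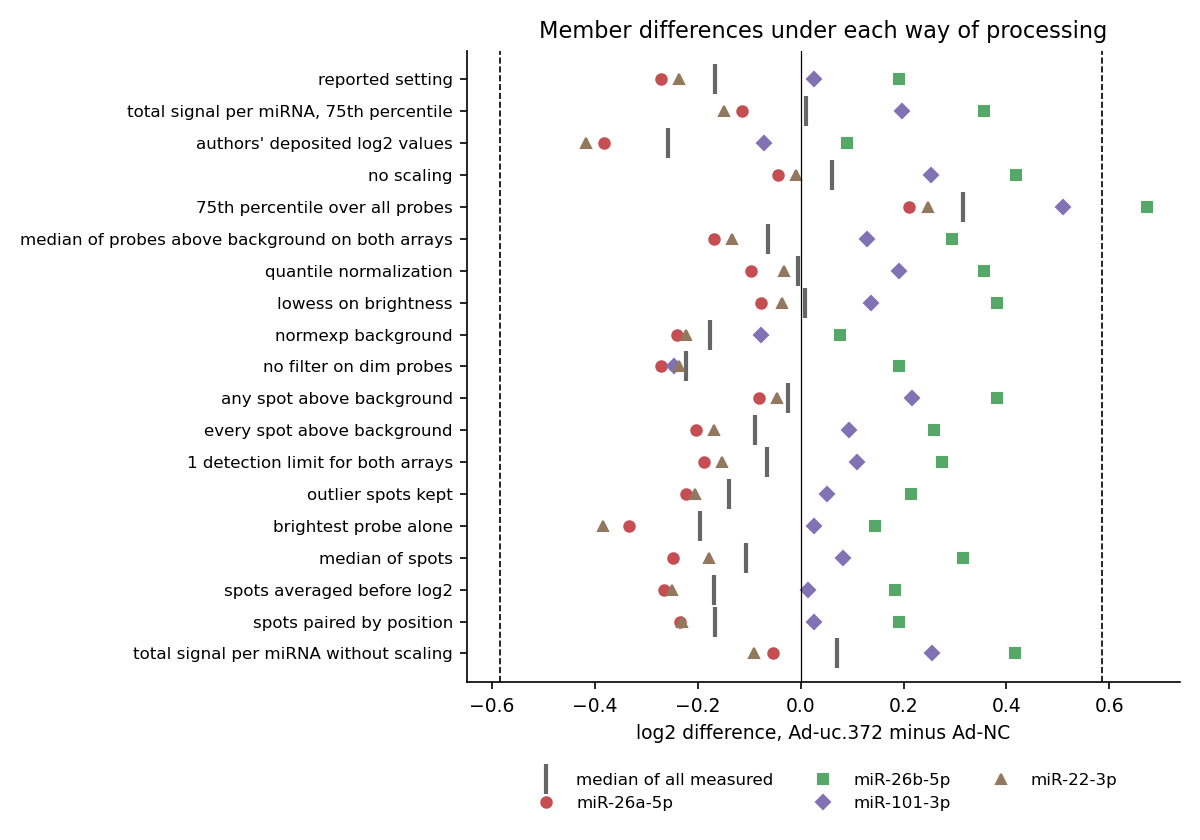
Log2 difference of the 4 measured members, Ad-uc.372 minus Ad-NC, in the reported setting and under 18 alternatives, with the median of all measured miRNAs as a grey bar and 1.5-fold as dashed lines. Points and bar shift together with the scaling, miR-26a-5p and miR-22-3p lie below the bar in each setting, miR-26b-5p lies above it, and miR-26b-5p passes 1.5-fold only with the 75th percentile over all probes.

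The opposite arms and paralogues of the members that the array holds were not called well above background. Of 9 such names, miR-101-2-5p and miR-199b-3p had no entry, and the other 7 had 21 probes, of which 0 passed on either array. They were the 3p arms of MIR26A1, MIR26A2, MIR26B and MIR139, the 5p arms of miR-101 and miR-22, and miR-199b-5p. The signal of miR-22-5p was nearest to the limit, with a brighter probe at 7.72 with Ad-NC and 14.2 with Ad-uc.372. With Ad-uc.372 that mean exceeded the brightest negative control spot, at 13.9, and the brightest spot of miR-22-5p, at 19.0, exceeded the limit of 17.3. The arm still failed the call that 50% of spots be well above background. It is therefore counted as not measured, which does not show that it is absent.

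Among 22 other miRNAs known to be low in hepatocellular carcinoma, 9 were measured on both arrays and 13 on neither. The unmeasured ones included miR-122-5p, the main miRNA of mature hepatocytes, miR-125b-5p, miR-145-5p and miR-223-3p. Of the 9 measured, 7 were lower and 2 higher with Ad-uc.372, and 0 passed 1.5-fold, both near the shares of 73.8% lower and 3.93% past 1.5-fold over all measured miRNAs. Their median difference was -0.24, beside -0.17 for all 229 miRNAs, and they ranged from -0.44 for miR-195-5p to 0.34 for miR-192-5p. The value of miR-195-5p rested on 1 of its 2 probes, with a combined spot SD of 0.27. Its brighter probe averaged 26.7 with Ad-NC and 22.9 with Ad-uc.372, near the limits of 21.1 and 17.3. Both means are processed signals before scaling. After scaling the limits lie at -3.85 and -4.37, and what they add to the difference of miR-195-5p was not tested. miR-34a-5p, a target of p53, was at -0.37 with a combined spot SD of 0.60. The other 6 were miR-29a-3p, miR-29c-3p, miR-148a-3p, miR-378a-3p and miR-194-5p, from -0.26 to -0.16, and miR-200a-3p at 0.12.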

How the data were processed

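RNA of 1 HepG2 culture per vector was hybridised to 1-colour Agilent human miRNA arrays that share a slide and a scan. The authors read the images with Agilent Feature Extraction (10.10 in the labels, 11.5.1.1 in the file headers, grid on hg19), and the deposited intensity of each spot is background-subtracted but not normalized between arrays. The authors also deposited log2 values per miRNA, made with GeneSpring GX. For 2546 of 2549 miRNAs with Ad-NC and 2542 with Ad-uc.372 they equal log2 of the software's total intensity minus 1.39 and 1.71, within 0.001. Their medians, -4.71 and -5.04, are the value of undetected miRNAs. These values served as an alternative.

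Control and outlier spots were left out, spots under the array's limit were raised to it, log2 intensities were averaged over spots, and the 75th percentile over probes above background on both arrays was subtracted. Differences were averaged over the measured probes of a miRNA. The combined spot SD adds the spot variances of the arrays and takes the root. The normexp alternative used the median spot signal and median local background with an offset of 50. No test between conditions was possible, and precision is limited by the number of arrays. Alternatives in scaling, background, filter and averaging are given in the closing section. The steps were run on simulated arrays with 2-fold changes planted in bright miRNAs. This does not bear on differences as small as those of the members.

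The members, lists and rule for named miRNAs (the listed members, their other arms and paralogues, miRNAs of the same seed, and the list of miRNAs low in hepatocellular carcinoma) were chosen with earlier results of these data known. Tools were limma 3.58.1 in R 4.3.3 for normexp and, in Python 3.11.15, matplotlib 3.10.9, statsmodels 0.14.6, pandas 2.3.3 and numpy 2.4.6.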

Additional observations from a re-analysis of the deposited data

How the results depend on the processing

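The number of measured members stayed 4 under each alternative that bears on it, and 18 alternatives gave values for these 4. The count of members past 1.5-fold, 0 in the reported setting, became 1 when the 75th percentile was taken over all probes, which put miR-26b-5p at 0.67, miR-101-3p at 0.51, miR-22-3p at 0.25 and miR-26a-5p at 0.21, and the median of the members at 0.38. This adds the same amount to every miRNA and moved the median of all miRNAs to 0.32. In that setting 37 of the 229 measured miRNAs, or 16.2%, were past 1.5-fold. The count of members was also 0 at 2-fold in the reported setting. Of 72 values of single members under the alternatives, 65 stayed within the combined spot SD of the reported value and 7 lay outside it: the 4 just given and miR-22-3p at -0.0096 without scaling, -0.033 with quantile normalization and -0.036 with lowess. miR-26a-5p and miR-22-3p were below 0 in 17 of 18 alternatives, miR-26b-5p above 0 in 18 of 18, and miR-101-3p above 0 in 15 of 18, at -0.25 with no filter on dim probes, -0.076 with normexp and -0.072 with the authors' values. Pairing by position and the unscaled total signal were chosen after the data were seen. Slide and scan are common to the arrays, so neither could serve as a block. No paired analysis was possible because there is a single array for each vector. Signal over background leaves miR-199a and miR-139-5p without a difference.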
